A study of Mus musculus with 9 samples.

Results

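Gm13715 is a long noncoding RNA gene on mouse chromosome 2 (85208436 to 85243678, GRCm38.p6, RefSeq), 1 of the 10706 gene names in the deposited table used here. It was selected on its difference in FPKM between islets of pregnant and virgin mice, and all 7 table rows of that name were taken, alone and as their sum. FPKM counts the fragments of a transcript per unit of transcript length and of library size, so levels of different loci are compared per length. Pancreatic islets of female mice were profiled by bulk RNA sequencing in 5 virgin libraries and in 4 libraries of pregnant mice at a gestational day labelled GD14.5. The labels name no strain, age, treatment or transgene and do not say whether a library held islets of 1 animal or of several. The p-values therefore measure the spread between these libraries, which may be technical.

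Islets adapt to pregnancy under prolactin and placental lactogen, which act through the prolactin receptor and the transcription factor STAT5 and raise beta cell number and insulin output. Lrrc55, the coding gene beside Gm13715, encodes a leucine-rich-repeat auxiliary subunit of BK channels, the large-conductance potassium channels opened by voltage and calcium. Lrrc55 has been described as induced in islets by pregnancy and as protecting beta cells. Long noncoding RNAs are transcripts without a known protein product, some of which act on genes next to them. No role of Gm13715 was measured here.

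Lrrc55 lies on the minus strand (85188067 to 85198750) and Gm13715 on the plus strand, so they point away from each other, with 9.69 kb between them. RefSeq lists 7 transcripts for Gm13715 and the table holds 7 rows, but the rows carry no transcript identifiers and could not be matched to them. Among the 9300 names of RefSeq long noncoding RNA genes, 48.8% had more rows than RefSeq transcripts, so a row need not be a RefSeq transcript. GENCODE M21 has 1 Gm13715 transcript, of 3 exons of 115, 134 and 162 bases, which lies in the distal part of the RefSeq extent (85233675 to 85243678).

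**Figure D1:**
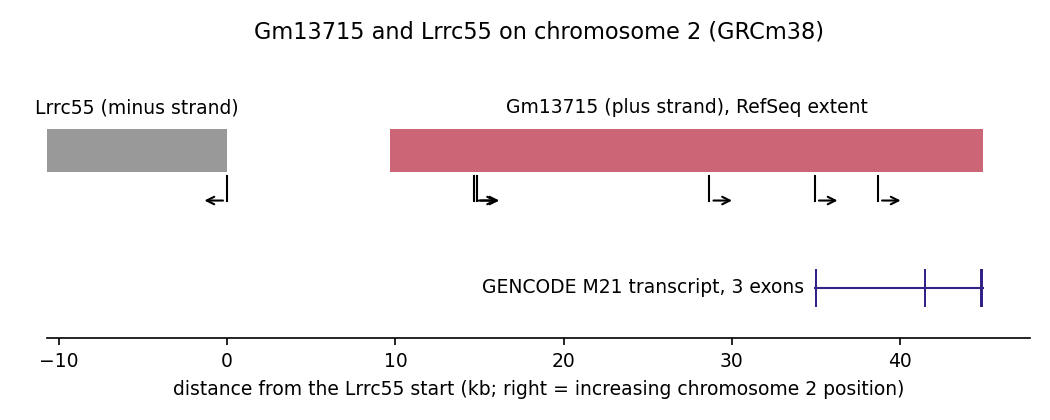
Map of Lrrc55 and Gm13715 with distance from the Lrrc55 start in kb on the x axis. Bars are RefSeq extents, bent arrows the start sites of the promoter table (1 of Lrrc55, 5 of Gm13715) and the lower line the GENCODE transcript with its 3 exons. The genes point away from each other, 9.69 kb apart.

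RefSeq promoter windows on GRCm38.p6, from 250 bases before to 50 from each start, were given for both genes. The 5 windows of Gm13715 belong to starts 14.7, 14.8, 28.7, 34.9 and 38.7 kb from the start of Lrrc55. They were searched on both strands for the STAT5-type motif TTCNNNGAA, which reads the same on either strand. It was present in 1 of the 5 windows of Gm13715, as TTCTTAGAA, 232 bases before the start farthest from Lrrc55, and not in the Lrrc55 window. Over all 32851 promoter windows of this length, 8.3% held it. A match describes letters and is no evidence of binding. The 5 windows of Gm13715 held 1 to 4 CpG dinucleotides and that of Lrrc55 held 4, against a median of 7 over all windows. The windows of Lrrc55, of the listed Gm13715 start nearest to it and of the start with the match are shown, to set the 2 genes side by side and to show the motif. The RefSeq extent of Gm13715 begins nearer to Lrrc55 than any of its 5 windows, and no window for that end was used here. Capitals mark the first transcribed base and the motif match. The intervals are chr2:85198701-85199000 (minus strand), chr2:85213193-85213492 (plus strand) and chr2:85237180-85237479 (plus strand).
Lrrc55: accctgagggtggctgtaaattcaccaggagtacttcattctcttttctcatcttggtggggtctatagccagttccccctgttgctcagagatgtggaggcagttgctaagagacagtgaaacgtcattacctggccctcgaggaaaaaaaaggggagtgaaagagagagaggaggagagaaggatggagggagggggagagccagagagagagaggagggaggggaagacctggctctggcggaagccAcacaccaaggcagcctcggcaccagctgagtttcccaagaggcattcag
Gm13715, nearest start: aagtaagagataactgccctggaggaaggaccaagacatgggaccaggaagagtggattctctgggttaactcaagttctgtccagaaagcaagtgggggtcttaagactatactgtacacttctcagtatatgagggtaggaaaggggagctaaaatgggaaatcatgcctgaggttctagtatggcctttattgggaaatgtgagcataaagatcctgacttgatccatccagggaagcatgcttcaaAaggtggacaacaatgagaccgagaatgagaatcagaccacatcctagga
Gm13715, farthest start: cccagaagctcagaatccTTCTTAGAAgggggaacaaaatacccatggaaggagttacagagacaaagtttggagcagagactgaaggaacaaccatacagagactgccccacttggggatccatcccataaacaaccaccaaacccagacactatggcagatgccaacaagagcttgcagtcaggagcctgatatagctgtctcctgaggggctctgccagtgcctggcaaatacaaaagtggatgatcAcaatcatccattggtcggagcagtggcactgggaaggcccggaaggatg

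Summed over its rows, Gm13715 was at 0.02, 0, 0.03, 0 and 0.33 FPKM in virgin replicates 1 to 5 and at 2.37, 2.43, 1.19 and 23.65 FPKM in GD14.5 replicates 1 to 4. Every GD14.5 library was above every virgin library, and the lowest GD14.5 value was 3.61 times the highest virgin value. GD14.5 replicate 4 stood far above its group and held 79.8% of the FPKM summed over the GD14.5 libraries. The means were 0.0760 ± 0.143 FPKM in virgin islets (SD, n = 5) and 7.41 ± 10.8 FPKM at GD14.5 (SD, n = 4). On the log2(FPKM + 0.5) scale the difference was 2.93 ± 0.52 (SE), and 2.10 without GD14.5 replicate 4. These values chose the gene, so they are a description and carry no test. In bulk islets, a change in the share of cells that express a transcript cannot be told apart from a change in its level per cell.

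For scale, limma called 4 of the 2377 loci tested, or 0.168%, at an adjusted p under 0.05, Gm13715 among them. With the replicate number as a block it called 26, or 1.09%, again with Gm13715, whose difference was then 3.07 ± 0.46 (SE). The groups did not overlap at 14 loci, or 0.589%. Without virgin replicate 1, Gm13715 was not among the called loci, although its difference was 2.90. Since the gene was chosen on this contrast, nothing is read from its place in these counts.

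**Figure D2:**
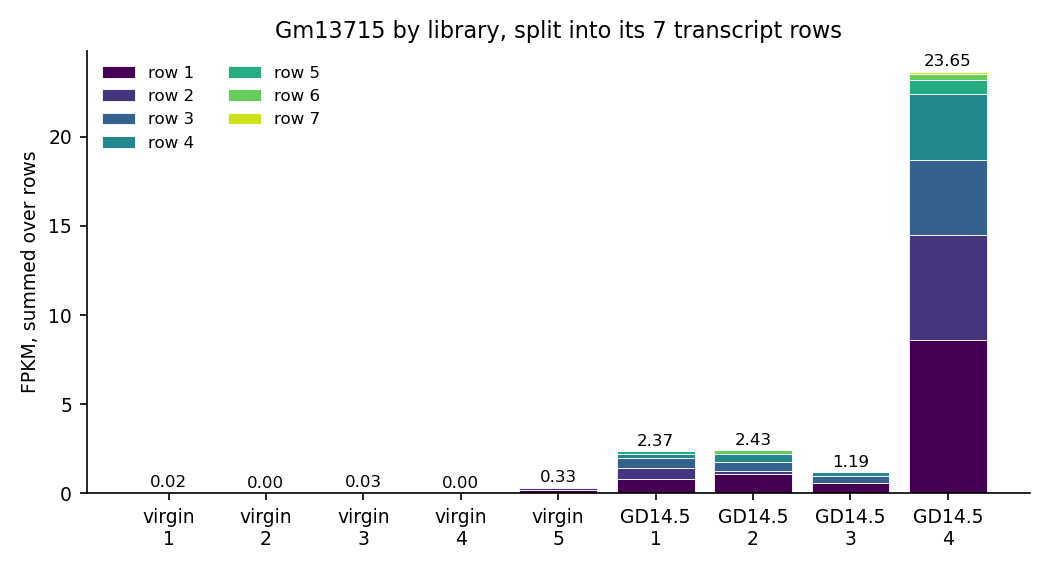
Gm13715 FPKM (y axis) in the 9 libraries (x axis), stacked by transcript row, with the sum printed above each bar. The virgin sums are 0 to 0.33, GD14.5 replicates 1 to 3 are at 1.19 to 2.43 and GD14.5 replicate 4 is at 23.65.

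In the order of levels within a library, Gm13715 lay near the bottom of the tested loci in virgin islets and in the upper part at GD14.5. Testing required a mean of 0.5 FPKM over both groups, which Gm13715, with a virgin mean of 0.076, reached only through its GD14.5 values. Of the 2377 tested loci, 2270 were above 0 in all 9 libraries. Its low place in virgin islets thus follows from its choice and this minimum, and nothing is read from it. In the virgin libraries at most 2.36% of the 2377 tested loci had a lower FPKM. At GD14.5 the share below it was 84.6%, 82.2%, 61.5% and 97.6% in replicates 1 to 4. GD14.5 replicate 4 thus held it in 57th place from the top, and replicate 3 in 909th place.

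The rows were ordered by mean FPKM and numbered 1 to 7. Row 1 was at 0, 0, 0.03, 0 and 0.16 FPKM in the virgin libraries and at 0.81, 1.05, 0.59 and 8.59 FPKM in GD14.5 replicates 1 to 4. Row 3 was listed at 0 in all 5 virgin libraries and was at 0.56, 0.50, 0.38 and 4.17 FPKM at GD14.5. Row 4 was listed at 0 in virgin replicates 1 to 4 and at 0.05 FPKM in replicate 5, against 0.20, 0.43, 0.22 and 3.74 FPKM at GD14.5. At these 3 rows the groups did not overlap. The rows are parts of the sum that chose the gene, and the share over all rows was not counted, so nothing is read from this. Row 2 reached 5.92 FPKM in GD14.5 replicate 4 but was listed at 0 in GD14.5 replicate 3, and at 0.61 and 0.20 FPKM in replicates 1 and 2. Its virgin values were 0 in replicates 1 to 4 and 0.12 FPKM in replicate 5. Rows 5, 6 and 7 were low, at most 0.75, 0.34 and 0.14 FPKM, and were above 0 in 2, 2 and 1 of the 4 GD14.5 libraries. Row 7 was also the only row above 0 in virgin replicate 1, at 0.02 FPKM. All 7 rows were highest in GD14.5 replicate 4.

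Of the 35 row values in virgin islets 5 were above 0, and of the 28 at GD14.5 20 were. Rows 1 to 4 held 92.0%, 89.7%, 100% and 94.8% of the summed Gm13715 FPKM in GD14.5 replicates 1 to 4. Row 1 alone held 34.2%, 43.2%, 49.6% and 36.3%, and row 3 held 23.6%, 20.6%, 31.9% and 17.6%. Row 2 varied more, at 25.7%, 8.23%, 0% and 25%. The high sum of GD14.5 replicate 4 was therefore spread over the rows and did not come from 1 of them. Overlapping transcripts share fragments, and the sources used here do not say how they were divided between rows.

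The high value in GD14.5 replicate 4 was set against the rest of that library. The FPKM summed over all names was 6488.1, 8287.7, 8088.5 and 14636.3 in GD14.5 replicates 1 to 4, so replicate 4 was high in the whole table, at 1.81 times the median of the other 3. Over the 2354 tested loci with a value above 0 to divide by, the median ratio of replicate 4 to the median of replicates 1 to 3 was 2.00, and 95% of ratios were at most 4.20. For Gm13715 it was 9.98, and 12 loci had a higher ratio. Per 1000 summed FPKM, Gm13715 was at 0.365, 0.293, 0.147 and 1.62 in GD14.5 replicates 1 to 4 and at 0 to 0.0161 in the virgin libraries. Replicate 4 was then still 4.44 to 11 times the other GD14.5 libraries, and the groups did not overlap on this scale either. Virgin replicates 4 and 5 had the highest sums, 18251.6 and 20530.6, with Gm13715 listed at 0 and 0.33 FPKM.

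**Figure D3:**
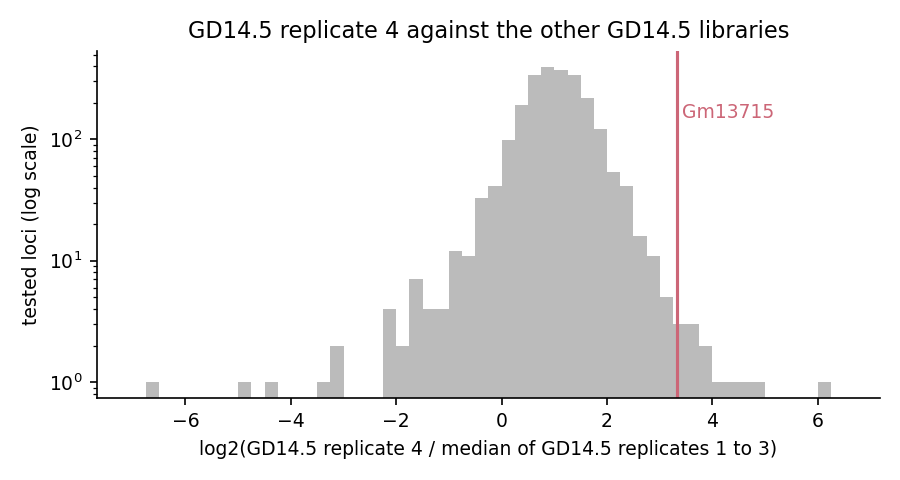
Histogram over tested loci of log2 of GD14.5 replicate 4 divided by the median of GD14.5 replicates 1 to 3 (x axis), with the number of loci on a log scale (y axis). The 2340 loci with a ratio above 0 are drawn, and the line marks Gm13715, whose ratio of 9.98 lies beyond all but 12 loci.

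The next comparison asked whether other loci around Gm13715 differed at GD14.5, a measure that its choice did not use. RefSeq places 103 other genes within 1 Mb, of which 63 have names of olfactory receptor genes or pseudogenes. Of the 103, 9 had a value in the table and 2, Lrrc55 and 4930443O20Rik, reached the mean of 0.5 FPKM needed for testing. Neither was called by limma, without or with the replicate block, and 1 of them, Lrrc55, had an unadjusted p under 0.05. Over all 2377 tested loci 0.168% were called, 1.09% with the block, and 60 loci, or 2.52%, had an unadjusted p under 0.05, so a count of 0 in 2 is no result about the neighbourhood.

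Lrrc55 had 1 row of unknown identity, and it did not follow Gm13715. It was listed at 0, 0.02, 0, 2.06 and 3.43 FPKM in virgin replicates 1 to 5 and at 0 in all 4 GD14.5 libraries. The values above 0.02 were thus in virgin replicates 4 and 5, where Gm13715 was at 0 and 0.33 FPKM, and no library was high in both. Lrrc55 reached the mean of 0.5 FPKM needed for testing only through virgin replicates 4 and 5. Nothing is therefore read from its p-values, here or in the counts of neighbours and of listed genes. The difference did not pass the threshold (limma adjusted p = 0.817 over all tested loci), nor did it with the replicate block (limma adjusted p = 0.643). Virgin replicates 4 and 5 also had the largest summed FPKM, and per 1000 summed FPKM Lrrc55 was at 0.113 and 0.167 there and at most 0.00187 in the other libraries. GD14.5 replicate 4, the third highest sum, was listed at 0. The part of the library sum in this pattern was not tested. RefSeq lists 3 transcripts of Lrrc55, and which of them, if any, the row stands for could not be told, so these values are not to be read as the level of its messenger RNA. A listed 0 is also not a measured absence, since 88 tested loci were listed at 0 in 1 library or more and above 2 FPKM in another.

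The other tested neighbour, the long noncoding RNA gene 4930443O20Rik (85073614 to 85086461), lies 122 kb from Gm13715, beyond Lrrc55. It was at 4.03, 10.03, 6.91, 16.40 and 18.23 FPKM in virgin replicates 1 to 5 and at 5.56, 6.10, 6.36 and 9.33 FPKM at GD14.5. The groups overlapped, with the highest levels in virgin replicates 4 and 5. The log2 difference was −0.51 ± 0.53 (SE, 95% interval −1.59 to 0.58; limma adjusted p = 0.817), against a median of −0.30 over all tested loci. The 7 untested neighbours were all at or below 0.50 FPKM in every library. Their 5 highest means were 0.273 FPKM at Gm52520, 0.109 at Gm19426, 0.0978 at Gm13710, 0.0533 at Gm36596 and 0.0233 at D930003E18Rik, and the groups overlapped at each of these 5.

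**Figure D4:**
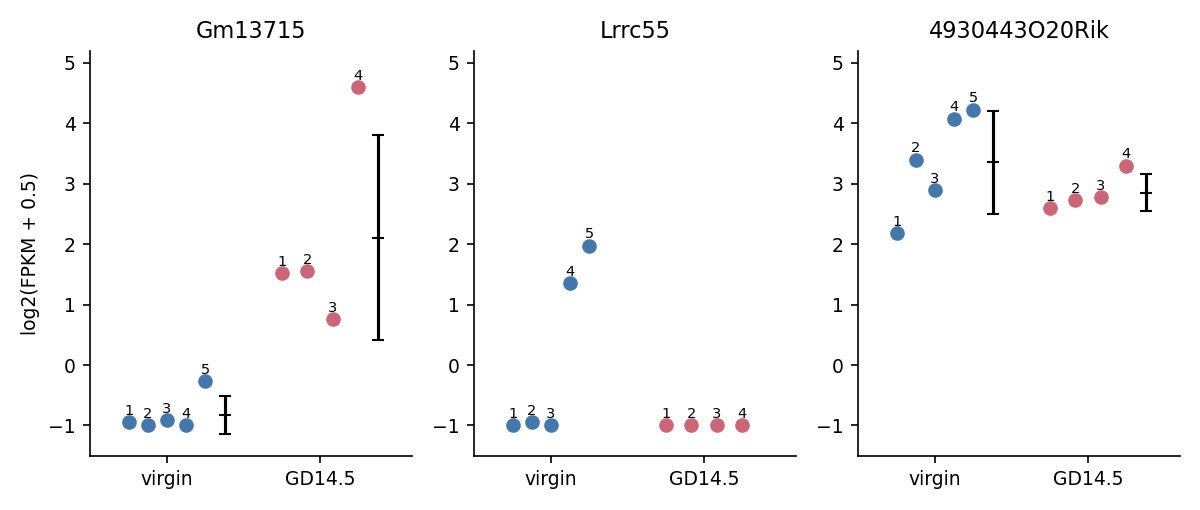
Level of Gm13715, Lrrc55 and 4930443O20Rik as log2(FPKM + 0.5) on the y axis in 5 virgin (blue) and 4 GD14.5 (red) libraries, numbered by replicate. Bars at Gm13715 and 4930443O20Rik are mean and SD, and are not drawn for Lrrc55; a listed 0 lies at −1. Gm13715 is higher in all GD14.5 libraries, Lrrc55 is high in virgin replicates 4 and 5 only, and 4930443O20Rik overlaps between groups.

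Genes of the BK channel and genes that islets induce in pregnancy or under lactogens give the setting of the locus. Of 9 BK channel genes, Kcnmb1 and Lrrc55 had a row, and Kcnmb1, an auxiliary subunit, was at 0 to 0.39 FPKM in virgin islets and 0 to 0.24 at GD14.5, below the level for testing. Gm13715, itself within 20 kb of Lrrc55, was left out of the counts for both lists. Of the 3 other tested loci named as BK channel genes or within 20 kb of one, limma called 0 without and 0 with the block, with 1, Lrrc55, at an unadjusted p under 0.05, where the shares over all tested loci are 0.168%, 1.09% and 2.52%. The other 2 were Gm51422 at Kcnma1, the gene of the channel pore, with a log2 difference of −0.58 ± 0.37 (SE; limma adjusted p = 0.817), and 4930469K13Rik near Kcnmb1, with −0.75 ± 0.42 (SE; limma adjusted p = 0.817). Of 34 pregnancy and lactogen genes, 5 had a row. Beside Gm13715, 11 tested loci were named as these genes or lay within 20 kb of one, and limma called 2 of them higher and 0 lower, and 4 higher and 0 lower with the block. Over all tested loci 0.168% were called higher, and 0.968% with the block. The list was chosen with earlier results of these data known, so nothing is read from these counts. The median log2 difference of the 11 was −0.05, against −0.30 over all tested loci. The 2 called without the block bear the names Ivd, a gene of leucine breakdown, and Cish, of a STAT5-induced inhibitor of cytokine signalling. Ivd was at 0 to 0.67 FPKM in virgin and 9.31 to 17.62 at GD14.5, and Cish at 1.82 to 3.93 and 18.31 to 43.02 FPKM. As at Lrrc55, the transcripts behind rows under coding names such as Ivd, Cish and Kcnmb1 could not be told. Their values are not to be read as messenger RNA levels. At Ivd, GD14.5 replicate 2 was highest, and at Cish, replicate 4 was 1.36 times the next library. With the block, 5730420D15Rik near Socs2 and 1300002E11Rik near Ehhadh were called as well. At 5730420D15Rik, GD14.5 replicate 4 was at 6.26 FPKM against 1.46 to 1.88 in replicates 1 to 3. At 1300002E11Rik it was at 50.31 against 13.3 to 16.55 FPKM. Replicate 4 was thus above its group at these loci too, but it was high in the whole table. Its median ratio to the other GD14.5 libraries was 2.00, and 95% of ratios were at most 4.20. The ratio of 9.98 at Gm13715 is not matched by these 2 loci.

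The labelled tissue could not be checked on its defining markers, since 0 of 12 islet endocrine genes, insulin and glucagon among them, had a row. Plut, a noncoding transcript beside the beta cell factor gene Pdx1, was at 3.01 to 17.43 FPKM in virgin islets and 3.03 to 8.19 at GD14.5. Of 37 markers of acinar, ductal, endothelial, stromal and immune cells, 3 had a row. Sox9 was at most 0.01 FPKM, Col1a1 was listed at 0 in all libraries, and Col3a1 was listed at 0 in 6 libraries and at 16.23, 8.46 and 8.38 FPKM in virgin replicate 2, GD14.5 replicate 2 and GD14.5 replicate 4. The transcripts behind these marker rows could not be told, so their values are not to be read as messenger RNA levels or as absence of a cell type. The part of these markers, and of the loci near markers, in the level of Gm13715 was not tested.

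The loci whose pattern over the 9 libraries was most like that of Gm13715 were ranked by Pearson correlation of log2(FPKM + 0.5), as a description. The points share libraries and their scaling, and the separation of the groups by Gm13715 favours loci that differ between them, so no test is given of the difference at these loci. The 6 most alike were Gm35853 (r = 0.98), Crispld2 (0.94), Gm26684 (0.94), Gm33391 (0.92), Gm26876 (0.92) and 5730420D15Rik (0.91), against a median r of 0.03 over all tested loci and −0.33 for Lrrc55. They lie on chromosomes 8, 10 and 15.

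Gm35853, a noncoding gene on chromosome 15 (101358593 to 101405857) within 20 kb of the keratin gene Krt7, was at 0.1, 0.26, 0.06, 0.14 and 0.26 FPKM in virgin replicates 1 to 5 and at 0.96, 1.17, 0.71 and 2.82 at GD14.5. It ordered the GD14.5 libraries as Gm13715 did, with replicate 4 highest and replicate 3 lowest. Crispld2, the name of a gene of a secreted protein, was at 0 to 0.18 FPKM in virgin islets and at 0.54, 0.45, 0.25 and 4.96 in GD14.5 replicates 1 to 4. Gm26684 was at 0.12 to 0.73 and 0.84 to 3.69 FPKM, and Gm26876 at 0.21 to 0.62 and 0.74 to 2.11 FPKM. Gm33391 was at 0.09 to 0.61 and 3.38 to 10.25 FPKM, and 5730420D15Rik, beside the cytokine signalling suppressor gene Socs2, at 0.26 to 1.28 and 1.46 to 6.26 FPKM. At all 6 every GD14.5 library was above every virgin library, as at 0.589% of all tested loci, and GD14.5 replicate 4 was highest. Both features are those of Gm13715, to which the loci were matched, and nothing is read from them. Without GD14.5 replicate 4, r was 0.97 for Gm35853, 0.95 for Gm33391 and 0.87 for Crispld2, which remained among the 6 most alike, and 0.77 to 0.83 for the other 3, which did not.

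**Figure D5:**
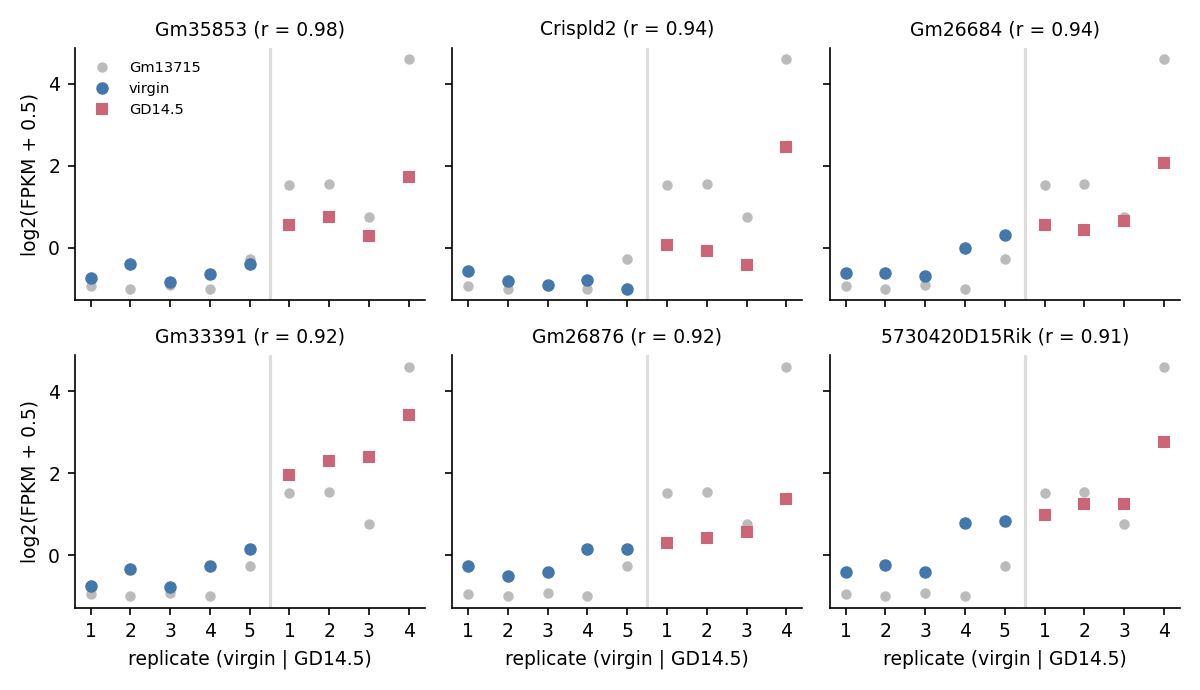
Level as log2(FPKM + 0.5) on the y axis of the 6 loci most like Gm13715, in 5 virgin (blue circles) and 4 GD14.5 libraries (red squares), with Gm13715 in grey in each panel. In all 6 panels GD14.5 replicate 4 is the highest library, as it is for Gm13715.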

How the data were processed

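Bulk islet RNA was extracted with TRIzol, enriched on oligo(dT) beads and amplified by PCR, per the labels' protocols. The authors deposited FPKM per transcript row, rounded to 2 decimals, with gene names. The build, per the submitters' processing notes, is GRCm38.p6. The sources used here do not name an aligner, quantifier, annotation or strand setting, and antisense signal cannot be separated.

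Of 26375 rows, 480 with a copy suffix were left out, and rows of a name were summed to 10706 loci. The 2377 loci with a mean of at least 0.5 FPKM were fitted in limma 3.58.1 under R 4.3.3 (variance trend, two-sided) after log2(FPKM + 0.5), with Benjamini-Hochberg adjusted p over all of them and a threshold of 0.05. Differences on this scale understate changes of low loci. The fit was also run on simulated data with the same noise at every locus, no outlying library and no difference in library scale. These data differ from that, so nothing is read from it about loci such as Gm13715. Depth is unknown: at the best common step, 17.6% to 32.1% of low values of short loci lay within 0.1 of a whole read, where values without steps give 20%, so no reads were recovered.

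Pairing of libraries was looked for on log2(FPKM + 0.5) values not scaled by library, so differences in summed FPKM enter the correlations. The part of these differences was not tested. Same-numbered libraries deviated together across loci (correlations 0.49, 0.20, 0.28 and 0.59), above the limit of 0.1 taken for pairing. Differently numbered libraries did so too (virgin 5 with GD14.5 4 at 0.49, virgin 3 with GD14.5 2 at 0.25, and virgin 2 with GD14.5 1 at 0.23, above its own 0.20), and the labels do not say that numbers pair libraries, so the pairing is a hint from the data only. The replicate block is therefore given where it changes a count. Blocked differences rest on the 4 pairs, since no GD14.5 library is numbered 5.

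Named loci are Gm13715 and its rows, table loci within 200 kb and the 5 most abundant between there and 1 Mb, the 6 tested loci most correlated with Gm13715, and tested loci at or within 20 kb of genes of the 2 lists; of the last, those not called are given in part. Markers were a separate list. Members and lists were chosen with earlier results of these data known. Neighbours were placed by RefSeq symbols on GRCm38.p6, which 10705 of 10706 names matched. Promoter sequences are RefSeq's, matched by symbol for both genes. Alternatives were other pseudocounts, minimums, scalings, the block, no variance trend and leaving out libraries.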

Additional observations from a re-analysis of the deposited data

Results flagged for a closer look

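Of 30 sets of log2(FPKM + 0.5) values, each of 1 locus or transcript row within a group, 12 had 1 library apart from the others by Dixon's criterion. The criterion assumes continuous values, for which chance marks about 1 set in 20. In 4 of the 12 all other libraries are listed at 0, so that any value above 0 stands apart, and no chance count is given. The sets are not independent, since the rows make up the sum and the likeness loci were chosen for their resemblance to it.

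GD14.5 replicate 4 accounted for 7 of them, always as the highest library. It was at 3.18 for row 1 of Gm13715 against 0.12 to 0.63 in the other GD14.5 libraries, at 2.22 for row 3 against −0.18 to 0.08, at 2.08 for row 4 against −0.51 to −0.10 and at −0.64 for row 7, where the others are listed at 0 FPKM. It was at 2.45 for Crispld2 against −0.42 to 0.06, at 2.07 for Gm26684 against 0.42 to 0.66 and at 2.76 for 5730420D15Rik against 0.97 to 1.25. The sum of Gm13715 in this library, 4.59 against 0.76 to 1.55, did not reach the criterion.

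In 4 it was virgin replicate 5, again highest. It was at −0.27 for the Gm13715 sum where its group was otherwise at −1 to −0.92. For row 1 it was at −0.60, with the rest at −1 to −0.92. It was at −0.69 for row 2 and −0.86 for row 4, where the others are listed at 0 FPKM. The last was row 7 in virgin replicate 1, at −0.94, with the others listed at 0 FPKM. The virgin values are within 0.33 FPKM of 0. The causes were not tested.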

How the results depend on the processing

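The log2 difference of Gm13715 was above 0 under all 22 alternatives. It was 4.67 with a pseudocount of 0.1, which raises the difference of loci near 0 by construction. The other 21 lay within 1 SD between replicates of the reported 2.93. That SD, pooled over both groups, was 1.14 and takes in GD14.5 replicate 4, so it is a wide limit. The 21 ran from 1.99 for the most abundant row alone to 3.38 without GD14.5 replicate 3. Scaled by the summed FPKM of the other names in each library, it was 3.2. Without the 3 libraries of highest summed FPKM it was 2.23, and without the most abundant row 2.42. These 3 and the single row were chosen after the data were seen. Gm13715 was not called by limma under 4 of 18 alternative settings, namely without virgin replicate 1, with no minimum, with no variance trend and when the replicate block was combined with equal medians.

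The counts of called loci, 4 higher and 0 lower, depended on scaling and block. They were 22 and 1 with equal library medians, 24 and 5 after quantile normalization, 23 and 3 with the replicate block, 15 and 0 with the block on equal medians, and 13 and 1 without the 3 libraries of highest summed FPKM. Leaving out 1 library gave 3 to 5 higher and 0 to 1 lower, the 1 without virgin replicate 4. The causes were not tested. Over all tested loci the median difference moved from −0.30 to −0.13 under the block and to −0.02 once library medians were equal.

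Neither 4930443O20Rik nor Lrrc55 was called under any of the alternatives that tested it, and both stayed below 0; with a minimum of 1 FPKM Lrrc55 was not tested. Of the 6 loci most like Gm13715, 5 were among the first 6 by Spearman correlation (Crispld2 was not), 4 with equal library medians (Gm26876 and Gm33391 were not) and 3 without GD14.5 replicate 4. The unknown depth limits all values near 0.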

Other observations

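Tested loci listed at 0 throughout 1 group were looked up after their values were seen. Such a locus reaches the mean of 0.5 FPKM only through the other group, so nothing is read from their number. Untested names were not counted. Besides Lrrc55, 2 of the 2377 tested loci were listed at 0 in all GD14.5 libraries, both under names of coding genes. Nktr was at 2.91 and 3.35 FPKM in virgin replicates 2 and 5, and Unc79 at 25.99 FPKM in virgin replicate 5, with 0 in the remaining virgin libraries. Listed at 0 in all virgin libraries were 2 others, Fuca2, with 0.240 and 4.97 FPKM in GD14.5 replicates 3 and 4, and Gm40856, with 6.23 FPKM in GD14.5 replicate 4.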
